A study of Homo sapiens with 5 samples.

Results

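The genes described here build and control the kinetochore, the protein assembly on the centromere that ties a chromosome to spindle microtubules, together with the kinases that drive mitosis. They were listed by gene name with no rule on measured values, although earlier results of these data were known. The list has 39 genes, and the count table holds rows for 27328 genes. It covers 7 mitotic kinases, 3 subunits of the chromosomal passenger complex and 7 genes of the spindle assembly checkpoint. A further 15 belong to centromeric chromatin and the inner kinetochore, and 7 to the outer kinetochore and its corona. Of these 39, 38 were matched to a row and all 38 passed the filter on low counts, so 38 of the 14391 tested genes are reported. *MAD1L1*, a checkpoint protein, was not analysed here.

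The cells were TF-1, a human acute myeloid leukemia (AML) cell line. The question was how loss of *MTSS1*, a scaffold protein that links membranes and the actin cytoskeleton, changes gene expression. Cells were transduced with lentiviral Cas9 and a single guide RNA, and pools of 4 single-cell clones each were profiled by QuantSeq 3′ mRNA sequencing, which gives 5 libraries here. The 2 control pools (sgCtrl pools 1 and 2) carried a guide against Renilla luciferase, a sequence that human cells lack. The 3 *MTSS1* knockout pools (knockout pools 1, 2 and 3) carried sgMTSS1_1, sgMTSS1_2 and sgMTSS1_3, so each knockout replicate had its own guide. Every pool thus carried Cas9 and a guide. According to the study's methods a further control pool and a pool with another guide were left out after a test for outliers, and they were not analysed here. A replicate is a pool of clones, and the p-values below measure the spread between the pools that were kept. Leaving out outlying pools can make this spread too small, which was not tested.

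Kinetochores are assembled on chromatin that holds the histone H3 variant *CENPA*. The inner kinetochore, called the constitutive centromere associated network, sits on this chromatin throughout the cell cycle, and the outer kinetochore, which binds microtubules, is added for mitosis. Aurora B, within the chromosomal passenger complex, destabilises wrong attachments, and the spindle assembly checkpoint holds back the anaphase-promoting complex until all kinetochores are attached. The mRNAs of many of these genes are made mainly in G2 and M phase. Their promoters often hold a CHR element (TTTGAA), which the DREAM and MMB complexes bind, and CCAAT boxes, which NF-Y binds. In bulk RNA, a smaller share of cells in mitosis and less mRNA per cell cannot be told apart.

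Promoters of 4 members are printed because these are the members with a promoter in the RefSeq table among the 5 whose adjusted p was under 0.1. *BIRC5*, the other of the 5, is not in the table. Each run holds the 250 bases upstream of the RefSeq start site on GRCh38.p14, 5′ to 3′ on the gene's strand. *PLK1* lies at chr16:23678639-23678888 on the plus strand, *AURKB* at chr17:8210250-8210499 on the minus strand, *NEK2* at chr1:211675622-211675871 on the minus strand, and *CENPW* at chr6:126339865-126340114 on the plus strand. Capitals mark TTTGAA and CCAAT on either strand, which in the reverse direction read TTCAAA and ATTGG.
PLK1: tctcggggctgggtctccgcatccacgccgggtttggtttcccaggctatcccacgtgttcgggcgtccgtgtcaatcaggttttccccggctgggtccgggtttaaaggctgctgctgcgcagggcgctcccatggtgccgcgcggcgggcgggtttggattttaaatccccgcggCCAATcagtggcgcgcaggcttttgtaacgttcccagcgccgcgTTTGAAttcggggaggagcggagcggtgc
AURKB: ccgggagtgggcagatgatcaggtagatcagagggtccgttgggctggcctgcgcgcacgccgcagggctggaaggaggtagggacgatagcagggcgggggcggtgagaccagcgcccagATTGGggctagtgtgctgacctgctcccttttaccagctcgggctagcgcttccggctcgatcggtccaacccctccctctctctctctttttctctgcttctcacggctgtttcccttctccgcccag
NEK2: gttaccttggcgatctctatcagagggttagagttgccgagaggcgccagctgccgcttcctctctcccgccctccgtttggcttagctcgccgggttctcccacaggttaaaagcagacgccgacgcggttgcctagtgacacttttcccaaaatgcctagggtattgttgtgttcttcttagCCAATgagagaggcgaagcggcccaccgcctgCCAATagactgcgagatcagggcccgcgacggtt
CENPW: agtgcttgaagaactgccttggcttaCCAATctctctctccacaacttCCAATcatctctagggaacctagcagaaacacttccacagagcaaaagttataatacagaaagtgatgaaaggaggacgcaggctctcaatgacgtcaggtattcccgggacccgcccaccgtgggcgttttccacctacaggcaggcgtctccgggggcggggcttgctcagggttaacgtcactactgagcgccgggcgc

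The *PLK1* promoter held the only CHR element of these 4, starting 29 bases upstream of the start site, with a CCAAT box starting 73 bases upstream. *NEK2* and *CENPW* each had a pair of CCAAT boxes. In *NEK2* they began 66 and 34 bases upstream, and in *CENPW* 224 and 202 bases upstream. *AURKB* had 1 CCAAT box, in the reverse direction, beginning 129 bases upstream. *PLK1* and *NEK2*, which differed in the direction of their values, thus both held CCAAT boxes near the start site.

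Of the 39 members, 31 had a promoter in the table. Over a window of 300 bases (250 upstream and 50 downstream), TTTGAA was found in 15 of the 31 (48.4%), against 15.5% of all 27326 promoters. CCAAT was found in 18 (58.1%), against 35.7% of all promoters. Both motifs stood in 10 (32.3%), against 6.13% of all. Matches of the 2 motifs can share at most an end base. Members with TTTGAA (15) had log2-fold changes with a median of 0.0115, and the 15 tested members without it had a median of 0.146. For CCAAT these medians were 0.105 (18 with it) and 0.0764 (12 without). The members with and without these motifs thus had similar medians, and a match is a description of letters only.

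Libraries held 2849979 and 3408827 counts in the control and 5442639 to 8854899 in the knockout, so that every knockout library was deeper than both control libraries. Mitochondrially encoded genes took 13.9% and 8.63% of the counts in the control libraries and 6.71 to 7.44% in the knockout libraries (95% Wilson intervals of 13.9 to 13.9% and 8.6 to 8.66% in the control, with bounds of 6.69 and 7.45% over the knockout). These intervals cover counting error only. Neither difference can be told apart from the condition, and for genes with an adjusted p under 0.1 among the members, and for genes called outside them, values from libraries thinned to equal depth are given below. All 12 TF-1 markers (*CD33*, *CD34*, *GATA1* and others) were tested and 0 were differentially expressed. Knockout pools lay above both control pools for 4 of them and below both for 2 (22.2% and 19.2% of all tested genes). The largest rises were *CD34* (log2-fold change 0.99, adjusted p = 0.148) and *TFRC* (0.90, adjusted p = 0.199), and the largest fall *GATA1* (−0.56, adjusted p = 0.291, all edgeR). The summed level of the 12 markers was 1919 and 2048 CPM (counts scaled to library size) in the control and 2262 to 2753 CPM in the knockout pools. Of 11 markers of other cell types 9 had a row and 3 (*KRT8*, *KRT18* and *PECAM1*) were tested, of which 0 were differentially expressed. This list summed to 211.1 and 253.6 CPM in the control and 348.1 to 398.8 CPM in the knockout pools, mostly from *KRT18* and *PECAM1*, and its part in the results was not tested. There are 68 pseudogenes named for *KRT18* and 51 for *KRT8*, so reads shared with these copies leave their counts uncertain. *EPCAM*, *COL1A1*, *COL1A2* and *ALB* had at most 4 counts in any library. The other untested markers with a row had at most 4 counts in the control and at most 26 in the knockout libraries, the highest in knockout pool 3. *MTSS1* itself was at 204.5 and 87.91 CPM in the control against 103.6, 138.8 and 49.93 CPM in the knockout pools, so the groups overlapped (log2-fold change −0.58, SE 0.47, adjusted p = 0.494, edgeR quasi-likelihood test with Benjamini-Hochberg adjustment). A cut that shifts the reading frame need not change mRNA abundance, so these 3′ tags do not check the edit. *NDUFB9* overlaps *MTSS1* on the opposite strand, and its part in these counts was not tested. According to the study's methods, the knockout in the pooled clones was checked by immunoblot.

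*BIRC5* and *CENPW* were higher in the *MTSS1* knockout pools, by 3.15-fold and 2.90-fold, and no other member was differentially expressed. Genes were called differentially expressed at an adjusted p under 0.05 (edgeR quasi-likelihood test, Benjamini-Hochberg adjustment over all tested genes) if the log2-fold change was also above 1 or below −1. In these terms 2 of 38 members (5.26%) were higher and 0 were lower. Over all tested genes 745 (5.18%) were called, of which 600 (4.17%) were higher and 145 (1.01%) lower, so the members' share lies near the background. An unadjusted p under 0.05 was found for 7 members (18.4%), against 23.3% of all tested genes, and an adjusted p under 0.1 for 5 (13.2%), against 11% of all. All 3 knockout pools lay above both control pools for 9 members (23.7%; 22.2% of all tested genes) and below both for 4 (10.5%; 19.2% of all). The groups overlapped for the other 25.

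The members as a whole stayed close to no change. The log2-fold change was above 0 for 25 of 38 members and below 0 for 13, and it lay within 0.5 of 0 for 23. Of all 14391 tested genes, 6952 were above 0, 7439 below 0 and 6998 within 0.5 of 0, so the members lay above 0 more often. The median of the members was 0.13, with a range of −1.37 to 1.66. The median over all tested genes was −0.03. Summed over the 38 members, the level was 3931 CPM in control pool 1, 2899 CPM in control pool 2, and 3787, 3702 and 3341 CPM in the knockout pools. The knockout sums thus lay between those of the 2 control pools. Control pool 1 was above control pool 2 for 25 members (65.8%, against 55.4% of the genes compared). The highest control value exceeded the lowest by a median of 1.52-fold, against 1.41-fold among the 3 knockout pools. Over all tested genes both medians were 1.54-fold. A range over 3 pools tends to be wider than one over 2, so the 2 groups cannot be compared directly in this way.

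Because reads come from the 3′ end of each transcript, counts should depend little on transcript length. Levels of different genes are compared on the CPM scale without a length correction. Capture of 3′ ends may differ between genes, which was not tested, so comparisons of level across genes are approximate. CPM values use the trimmed mean of M-values (TMM) factors. Every log2-fold change is knockout minus control.

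The mitotic kinases had the highest median log2-fold change of the role groups, 0.78 over only 7 genes, and 0 of 7 were differentially expressed. Their knockout pools lay above both control pools for 4 genes and below both for 1. Over all tested genes these shares were 22.2% and 19.2%. *PLK1*, the polo-like kinase that drives mitotic entry, centrosome maturation and kinetochore attachment, was at 22.51 and 14.6 CPM in the control and 37.1, 53.8 and 68.72 CPM in the knockout pools. The groups did not overlap, and the lowest knockout pool was pool 1. The means were 18.6 ± 5.59 CPM (SD, n = 2) and 53.2 ± 15.8 CPM (SD, n = 3), a log2-fold change of 1.52 with an SE of 0.38. The adjusted p was 0.052 with edgeR, just outside the threshold, and 0.00724 with DESeq2 on the same genes. *PLK1* passed both thresholds under 4 of 15 alternatives, and its adjusted p ranged from 0.0389 to 0.153 as each pool was left out in turn. With the libraries thinned to equal depth its log2-fold change was 1.46 (adjusted p = 0.0509, edgeR). *ERN2*, on the opposite strand, overlaps *PLK1* and had at most 3 counts in any library.

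*AURKB* encodes Aurora B, the kinase of the chromosomal passenger complex. Its level was 91.3 and 98.04 CPM in the control and 166.9, 194.3 and 198.0 CPM in the knockout pools. Both groups were tight and did not overlap, with means of 94.7 ± 4.77 CPM (SD, n = 2) and 186.4 ± 17.0 CPM (SD, n = 3). The log2-fold change was 0.98 (SE 0.29), just under the limit of 1, with an adjusted p of 0.081 by edgeR and 0.0281 by DESeq2. After thinning it was 0.98 (adjusted p = 0.0933, edgeR). *AURKA*, which encodes Aurora A, the kinase of centrosomes and spindle poles, had the highest mean of the kinases over the 5 pools, at 208.9 and 132.6 CPM in the control and 186.8, 186.9 and 178.5 CPM in the knockout pools. All 3 knockout values of *AURKA* lay between the 2 control values (log2-fold change 0.11, SE 0.31). *AURKB* was above *AURKA* in knockout pools 2 and 3 and below it in the other pools. Both Aurora genes have pseudogenes named for them (2 for *AURKA* and 1 for *AURKB*), so reads shared with these copies leave their counts uncertain.

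*NEK2*, a kinase that separates centrosomes before mitosis, had the lowest mean of the kinases over the 5 pools, although *PLK3* was lower in both control pools. It was the only kinase whose knockout pools all lay below the control. It was at 13.13 and 10.73 CPM in the control and 6.356, 4.152 and 3.132 CPM in the knockout pools, from 42 and 36 counts against 49, 23 and 18 counts. The log2-fold change was −1.37 (SE 0.43) with an adjusted p of 0.0946, and with libraries thinned to equal depth it was −1.27 with an adjusted p of 0.176 (edgeR in both). It passed the threshold under 0 of 15 alternatives. There are 3 pseudogenes named for *NEK2*.

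*PLK2* and *PLK3*, stress- and growth-responsive relatives of *PLK1*, also had knockout pools above both control pools. *PLK2* was at 22.2 and 14.3 CPM against 32.17, 33.58 and 35.84 CPM (log2-fold change 0.89, SE 0.33, adjusted p = 0.141, edgeR). *PLK3* was at 3.752 and 8.344 CPM against 9.728, 12.64 and 8.873 CPM (0.78, SE 0.45, adjusted p = 0.338, edgeR), and the higher control pool lay close to the lowest knockout pool. *PLK4*, which controls centriole duplication, overlapped between the groups, with 16.7 to 22.2 CPM in the control and 10.7 to 25.4 CPM in the knockout pools (log2-fold change −0.15).

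In the chromosomal passenger complex only 1 of the 3 genes was differentially expressed. *BIRC5* encodes survivin, the subunit that places the complex at centromeres and is also counted among the inhibitors of apoptosis. It had 327 and 178 counts in the control and 2287, 1264 and 1203 counts in the knockout libraries, which is 102.2 and 53.05 CPM against 296.6, 228.2 and 209.3 CPM. The lowest knockout pool was above the higher control pool, and the control pools themselves differed from each other. The means were 77.6 ± 34.8 CPM (SD, n = 2) and 244.7 ± 46.0 CPM (SD, n = 3), and the log2-fold change was 1.66 (SE 0.38, adjusted p = 0.038, edgeR). *BIRC5* passed under 11 of 15 alternatives, with a log2-fold change of 1.66 after thinning (adjusted p = 0.0404, edgeR). Without control pool 2 it was 1.29 (adjusted p = 0.0676), and without knockout pool 1, 2 or 3 the adjusted p was 0.113, 0.074 or 0.0788 (edgeR), so that the call was lost in each of these fits. The gene lies at chr17:78214186-78225636 on the plus strand of GRCh38, and no other gene with a row in the count table overlaps it.

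*CDCA8*, which encodes borealin, and *INCENP*, the scaffold that binds and activates Aurora B, had values near or below 0. *CDCA8* was at 105.2 to 133.8 CPM in the control and 117.1 to 123.1 CPM in the knockout pools (log2-fold change 0.01, SE 0.28). *INCENP* had the lowest mean of the 3 over all pools, at 39.08 and 103.4 CPM in the control and 42.93, 63.01 and 34.97 CPM in the knockout pools (−0.60, SE 0.43). Its control pools differed from each other more than the groups did. Without control pool 1 its log2-fold change was −1.13, and without control pool 2 it was 0.29.

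Ratios between partners were chosen after the values were seen, and they restate the same contrast within each library. *BIRC5* over *CDCA8* was 0.764 and 0.504 among control pools, against 2.45, 1.85 and 1.79 among knockout pools. *AURKB* over *AURKA* was 0.437 and 0.739 against 0.894, 1.04 and 1.11. *CENPW* over *CENPT*, its partner in a histone-fold complex, was 2.16 and 1.44 against 9.16, 4.58 and 5.47. For each ratio the groups did not overlap. The two-sided exact permutation p was 0.2 for each, and 0.2 after adjustment over the 3 ratios. This is the smallest value that the test as run could give with 10 splits of 5 pools. Because the pairs were picked for this contrast, the test adds no support to it.

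The 6 measured genes of the spindle assembly checkpoint had a median log2-fold change of −0.04, and 0 were differentially expressed. *CDC20*, the activator of the anaphase-promoting complex that the checkpoint inhibits, had the highest mean over all pools, at 361.8 and 167.2 CPM in the control and 200.5, 302.4 and 237.0 CPM in the knockout pools. All knockout values lay between those of the control pools. *MAD2L1*, which encodes the MAD2 protein that sequesters *CDC20*, was the least abundant, at 22.2 and 28.01 CPM against 46.18, 20.94 and 29.06 CPM. Its highest value came from knockout pool 1 alone, without which its log2-fold change was −0.0169 in place of 0.36.

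*BUB1B*, which encodes the checkpoint protein BUBR1, was the only checkpoint gene whose groups did not overlap. It was at 113.2 and 102.2 CPM in the control and 79.51, 82.5 and 57.94 CPM in the knockout pools, with a log2-fold change of −0.55 (SE 0.29, adjusted p = 0.289, edgeR). *PAK6* overlaps it on the same strand. *BUB1*, the kinase that phosphorylates histone H2A at centromeres, had a log2-fold change of −0.19, *TTK*, the MPS1 kinase that starts the checkpoint signal, 0.02, and *BUB3*, the adaptor that brings *BUB1* and BUBR1 to kinetochores, 0.16. *BUB3* was at 282.3 and 107.3 CPM in the control and 208.4 to 230.6 CPM in the knockout pools. Its value of 1.03 without control pool 1 and −0.35 without control pool 2 shows how far a single control pool set the estimate for this gene.

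**Figure D1:**
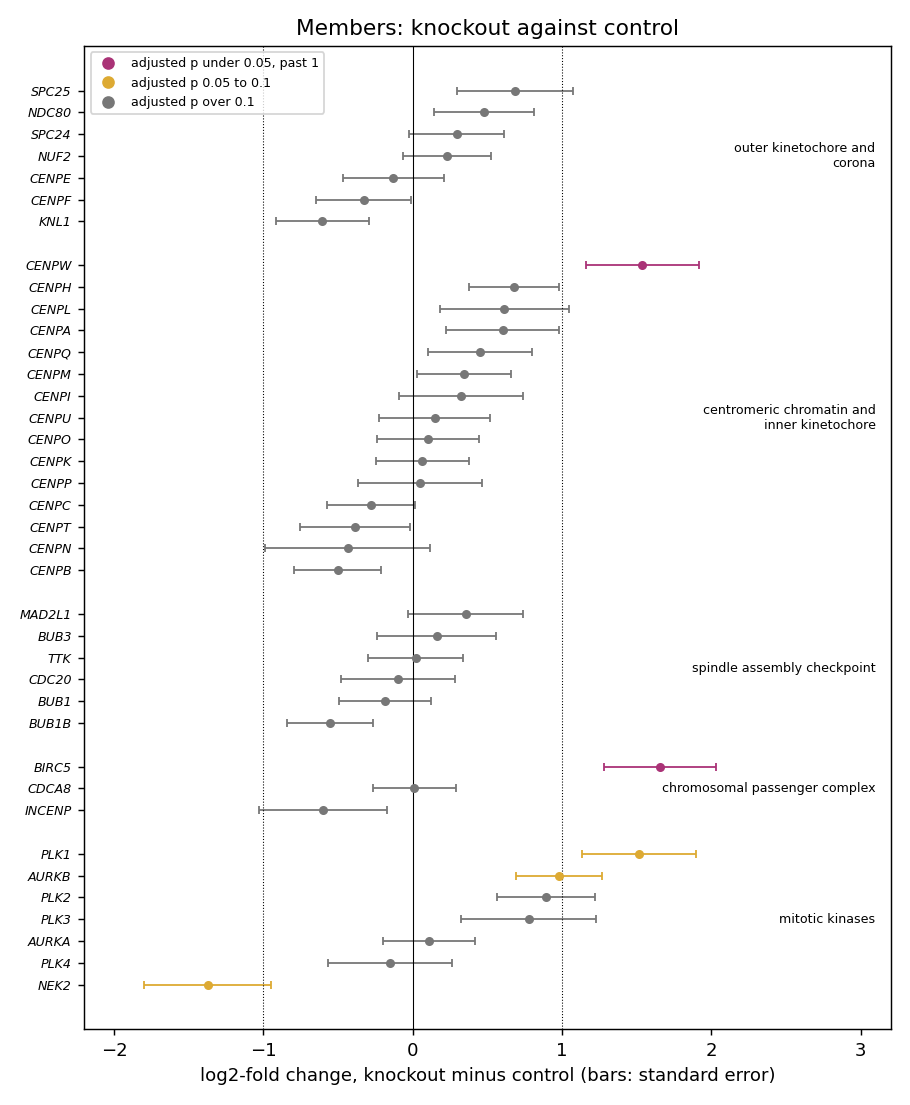
Log2-fold change (knockout minus control) of each member by role group, with bars for the standard error of the edgeR fit over 2 control and 3 knockout pools. Dotted lines mark 1 and −1. *BIRC5* (1.66) and *CENPW* (1.54) passed both thresholds, *PLK1* (1.52), *AURKB* (0.98) and *NEK2* (−1.37) had adjusted p-values between 0.05 and 0.1, and most other bars reach or come near 0.

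Centromeric chromatin and the inner kinetochore, the largest group with 15 genes, had a median log2-fold change of 0.15, with 1 gene differentially expressed. *CENPW*, a small histone-fold protein that pairs with *CENPT* on centromeric DNA, had 121 and 179 counts in the control and 1402, 508 and 711 counts in the knockout libraries. Its level was 37.83 and 53.34 CPM against 181.9, 91.71 and 123.7 CPM, with no overlap and with the highest value in knockout pool 1. The means were 45.59 ± 10.97 CPM (SD, n = 2) and 132.4 ± 45.7 CPM (SD, n = 3). The log2-fold change was 1.54 (SE 0.38, adjusted p = 0.047, edgeR), and 1.5 after thinning (adjusted p = 0.0465). *CENPW* passed under 9 of 15 alternatives. The call was lost with DESeq2 size factors (adjusted p = 0.0544), without control pool 1 (0.0907) and without knockout pool 1, 2 or 3 (0.128, 0.0626 and 0.121, all edgeR). *CENPW* lies at chr6:126340115-126348875 on the plus strand of GRCh38. A gene on the opposite strand, ENSG00000286215, overlaps it and had 19 and 110 counts in the control and 107, 89 and 183 counts in the knockout libraries. Whether counting used strand is not stated in the sources used here, and the part of those reads in the *CENPW* counts was not tested.

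The histone-fold partner *CENPT* was at 17.51 and 36.95 CPM in the control and 19.85, 20.04 and 22.62 CPM in the knockout pools (log2-fold change −0.39, SE 0.37), so that all knockout values lay between the control values. *CENPA*, the centromeric histone H3 variant, was at 16.88 and 8.344 CPM in the control and at 18.94, 19.32 and 19.14 CPM in the knockout pools. The knockout pools were almost equal and lay just above the higher control pool (log2-fold change 0.60, SE 0.38, adjusted p = 0.381, edgeR). *SLC35F6* overlaps *CENPA* on the same strand. *CENPH*, of the CENPH-CENPI-CENPK-CENPM module, showed the same form, with 27.51 and 20.86 CPM against 38.52, 38.63 and 38.8 CPM (0.68, SE 0.30, unadjusted p = 0.0492, adjusted p = 0.212, edgeR).

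The other genes of that module differed from the control by less. *CENPM* was at 23.76 and 20.26 CPM against 33.21, 26.54 and 23.84 CPM, with the lowest knockout value close to the higher control value (log2-fold change 0.34). *CENPK* was at 29.2 to 34.7 CPM in the control and 27.1 to 40.6 CPM in the knockout pools (0.06), and *CENPI* at 6.25 to 12.2 CPM and 9.73 to 14.3 CPM (0.32). All 4 genes of the module had values above 0, and the groups overlapped for the last 2.

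*CENPB*, which binds a short motif in alpha-satellite DNA, was the only gene of the inner kinetochore group with all knockout pools below the control. It was at 76.92 and 88.51 CPM in the control and 47.73, 61.2 and 66.29 CPM in the knockout pools (log2-fold change −0.50, SE 0.29, adjusted p = 0.333, edgeR). *CENPC*, which connects CENPA nucleosomes to the outer kinetochore, was at 51.9 to 72.5 CPM in the control and 46.6 to 55.1 CPM in the knockout pools (−0.28). *CENPA* thus lay above and *CENPB* below the control, and neither passed the test.

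*CENPN*, which reads the CENPA nucleosome, was the least abundant member of the group, at 5.003 and 2.98 CPM in the control and 4.28, 1.986 and 2.436 CPM in the knockout pools. It rests on 10 to 33 counts per library and overlaps several genes on both strands, and its fitted log2-fold change of −0.44 was smaller than its SE of 0.55. Its partner *CENPL* was at 8.76 and 21.8 CPM in the control and 17.5 to 26.7 CPM in the knockout pools (0.61, SE 0.43). The genes of the CENPO-CENPP-CENPQ-CENPU module, which binds *PLK1*, had log2-fold changes of 0.10, 0.05, 0.45 and 0.15. *CENPU* was the most abundant of these 4, at 109.1 and 50.06 CPM in the control and 72.7 to 102.5 CPM in the knockout pools. *CENPP* was the least abundant, at 5.63 and 5.66 CPM against 5.32 to 6.50 CPM. The groups overlapped for all 4. *CENPT*, *CENPL*, *CENPN*, *CENPO*, *CENPP* and *CENPU*, and in the outer kinetochore *NUF2*, *SPC24* and *SPC25*, overlap annotated genes on the opposite strand, whose part in their counts was not tested.

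Of the 7 outer kinetochore and corona genes 0 were differentially expressed, and their median was 0.23. The 4 subunits of the NDC80 complex, the main microtubule coupler, all had values above 0. *SPC25* had 0.69, *NDC80* 0.48, *SPC24* 0.29 and *NUF2* 0.23, with standard errors of 0.29 to 0.39. The groups overlapped for each of them. *SPC24* was the least abundant of the outer group, at 29.39 and 45.59 CPM in the control and 40.08, 45.67 and 52.2 CPM in the knockout pools. *NDC80* was at 65.3 to 83.2 CPM in the control and 82.6 to 140.1 CPM in the knockout pools, and *SPC25* at 47.2 to 58.4 CPM and 53.2 to 125.2 CPM. For *NDC80*, *NUF2* and *SPC25* the highest value came from knockout pool 1.

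*KNL1*, the scaffold that recruits *BUB1* and BUBR1 once *TTK* has phosphorylated it, lay below the control in all knockout pools. It was at 126.0 and 74.5 CPM in the control and 72.12, 64.99 and 60.55 CPM in the knockout pools (log2-fold change −0.60, SE 0.31, adjusted p = 0.282, edgeR). Control pool 2 was close to the knockout pools, and without control pool 1 the log2-fold change was −0.17. ENSG00000259254 overlaps *KNL1* on the same strand. *CENPF*, a large corona protein bound to microtubules and dynein regulators, was the most abundant member, at 1052 and 812.1 CPM in the control and 699.3, 819.6 and 707.9 CPM in the knockout pools (−0.33, SE 0.32). *CENPE*, the kinesin that carries chromosomes to the metaphase plate, was at 321.4 and 172.8 CPM in the control and 203.2 to 243.5 CPM in the knockout pools (−0.13). The groups overlapped for both.

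**Figure D2:**
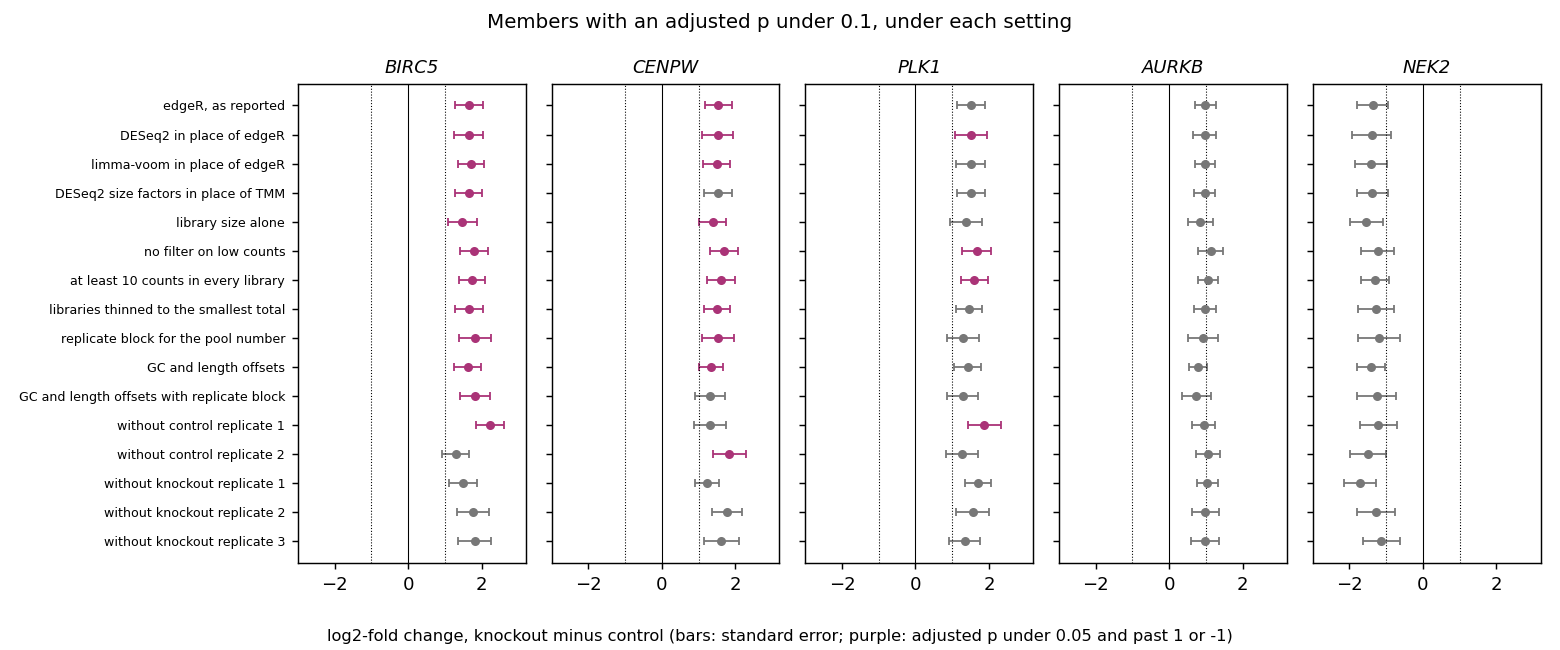
Log2-fold change (knockout minus control, bars for the standard error) of the 5 members with an adjusted p under 0.1, in the fit as reported and under each of 15 alternatives. Purple marks an adjusted p under 0.05 with a log2-fold change past 1 or −1, which *BIRC5* reached under 11 alternatives, *CENPW* under 9, *PLK1* under 4, and *AURKB* and *NEK2* under 0.

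The calls among the members depended on the pools. With any knockout pool left out, 0 members were differentially expressed, with control pool 2 left out 1, and with control pool 1 left out 2. Over all tested genes, 745 were called with all 5 pools and 111, 347 and 191 without knockout pool 1, 2 and 3, so calls were lost over the whole table as well. DESeq2 called 1357 genes in all and added *PLK1* to the members called. The log2-fold changes of *BIRC5*, *CENPW*, *PLK1*, *AURKB* and *NEK2* kept their direction under all 15 alternatives. The groups did not overlap for these genes, so leaving out a pool could hardly reverse the sign. Their steady direction is therefore no further evidence, and 20 members in all had no reversal.

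Genes outside the 39 that act in the same processes were described in the same fit. Of 91 such genes 87 were tested, 3 were higher and 0 lower, with a median log2-fold change of −0.00159. The 3 were other subunits or partners of the kinetochore, a list of 16 tested genes with a median of 0.28. *DSN1*, a subunit of the MIS12 complex that joins inner and outer kinetochore, was at 17.2 and 11.32 CPM in the control and 66.41, 44.23 and 40.19 CPM in the knockout pools (log2-fold change 1.82, SE 0.38, adjusted p = 0.0276, edgeR). *ZW10* and *ZWILCH* belong to the RZZ complex, which builds the corona and recruits dynein. *ZW10* was at 25.95 and 57.22 CPM against 130.9, 146.4 and 117.3 CPM (1.66, SE 0.38, adjusted p = 0.0406, edgeR), and *ZWILCH* at 73.79 and 49.17 CPM against 185.5, 127.5 and 162.5 CPM (1.37, SE 0.33, adjusted p = 0.0463, edgeR). The groups did not overlap for any of the 3. All 3 calls were lost when any knockout pool was left out. Without control pool 2, *DSN1* and *ZWILCH* lost the call (adjusted p = 0.0637 and 0.0967, edgeR), and without control pool 1, *ZW10* did (log2-fold change 1.21, adjusted p = 0.0541, edgeR). After thinning, *DSN1* and *ZW10* passed (adjusted p = 0.0298 and 0.0398, edgeR) and *ZWILCH* did not (log2-fold change 1.44, adjusted p = 0.0579, edgeR). *ZWILCH* also missed the threshold with library size alone (adjusted p = 0.0726, edgeR). *ZWILCH* overlaps *RPL4*, an abundant ribosomal protein gene on the opposite strand, and *ZW10* overlaps *RPS29P19*, a ribosomal pseudogene on the same strand. Their part in these counts was not tested. *PMF1*, another subunit of the MIS12 complex, had the lowest value in this list and did not pass the test, with 31.89 and 19.37 CPM in the control and 16.6, 16.25 and 13.92 CPM in the knockout pools (log2-fold change −0.71, adjusted p = 0.242, edgeR).

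In the remaining lists 0 genes were differentially expressed, against 5.18% of all tested genes. Genes for *CENPA* loading and centromere cohesion (16 tested) had a median log2-fold change of 0.02, with *ESPL1*, the separase protease, at 0.62 and *HJURP*, the chaperone that loads *CENPA*, at −0.66 as the extremes. *HJURP* was at 106.0 and 96.85 CPM in the control and 66.28, 71.85 and 53.76 CPM in the knockout pools (adjusted p = 0.194, edgeR), so that *HJURP* lay below the control while *CENPA* lay above it. Genes of the anaphase-promoting complex and its regulators (19 tested) had a median of −0.19 and ran from −1.66 for *ANAPC2*, its cullin subunit, to 2.22 for *MAD2L1BP*, the MAD2 antagonist p31comet. *ANAPC2* rested on 12 and 14 counts in the control and 7, 9 and 7 counts in the knockout libraries (adjusted p = 0.108, edgeR). *MAD2L1BP* was at 23.35 CPM in knockout pool 1 and 3.972 and 9.047 CPM in the others, against 3.752 and 1.49 CPM in the control (SE 0.79, adjusted p = 0.132, edgeR). It had only 12 and 5 counts in the control, against 180, 22 and 52 counts in the knockout libraries.

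Activators of the mitotic kinases and other mitotic kinases (13 tested) had a median of −0.19. *BORA*, the cofactor through which Aurora A activates *PLK1*, had the lowest value, −1.87, from 16 and 9 counts in the control and 11, 4 and 5 counts in the knockout libraries (SE 0.60, adjusted p = 0.102, edgeR). *BORA* and *PLK1* thus had fitted values of opposite sign, and neither passed the test. *NEK6*, a kinase that acts on spindle kinesins, had the highest value of this list at 1.29 (adjusted p = 0.0922, edgeR). Mitotic motors and midzone proteins (18 tested) had a median of −0.16 and ran from −1.47 for *NUSAP1*, a microtubule bundler, to 1.49 for *PRC1*, the crosslinker of the spindle midzone (adjusted p = 0.169 and 0.0623, edgeR). *NUSAP1* rested on 4 to 10 counts per library.

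Proliferation markers (5 of 7 tested) had a median of 0.39, and their direction differed. *MKI67*, which encodes Ki-67, was at 1207 and 924.7 CPM in the control and 487.7, 790.6 and 647.2 CPM in the knockout pools (log2-fold change −0.73, SE 0.34, adjusted p = 0.236, edgeR). *RRM2*, a subunit of ribonucleotide reductase, was at 100.7 and 87.91 CPM against 128.3, 133.4 and 156.4 CPM (0.56, adjusted p = 0.272, edgeR). The groups did not overlap for either gene, and they lay in opposite directions.

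**Figure D3:**
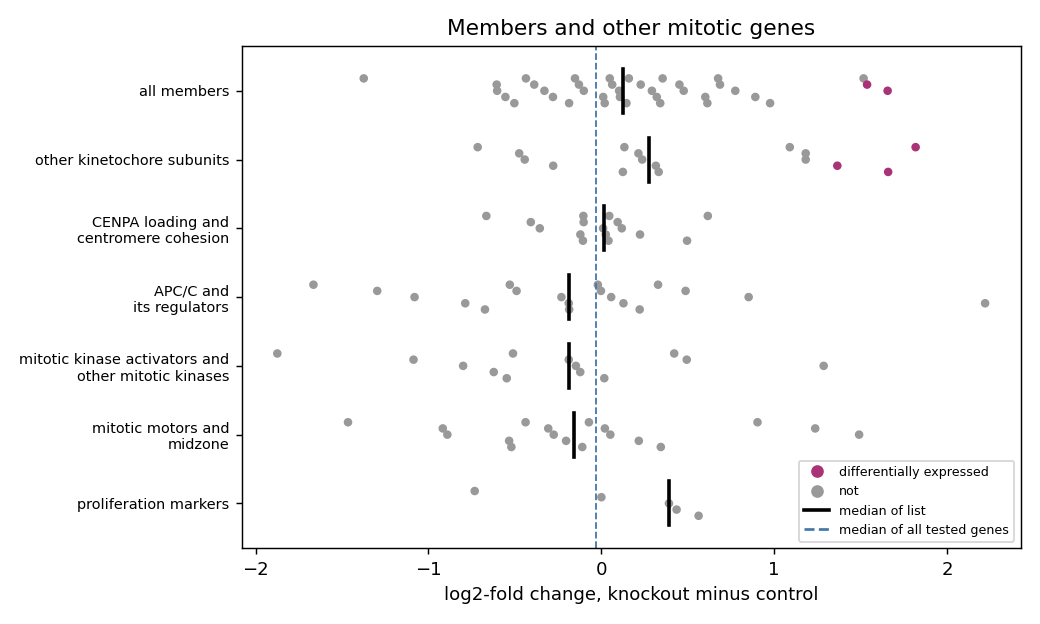
Log2-fold change (knockout minus control) of each tested member and of each tested gene of the other lists. Each point is 1 gene, black bars are the medians of the lists, the dashed line is the median of all tested genes (−0.03), and purple points are differentially expressed. Purple points appear among the members (2 of 38) and the other kinetochore subunits (3 of 16), all higher, against 4.17% of all tested genes. The medians of the lists run from −0.19 to 0.39.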

How the data were processed

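RNA was measured in 5 TF-1 libraries, 2 control and 3 *MTSS1* knockout pools, grouped by their sample labels. The authors made QuantSeq 3′ libraries, aligned trimmed reads to GRCh38 with HISAT2 2.1.0, used SAMtools 1.10 to keep uniquely mapped reads, and deposited raw counts per Ensembl gene without normalization. The counting program, the annotation release and the use of strand are not given in the sources used here.

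Tests were run with edgeR 4.0.16 in R 4.3.3. The function filterByExpr with a minimum count of 10 kept 14391 of 27328 genes. TMM factors ran from 0.876 to 1.13. The quasi-likelihood model held the condition alone, with Benjamini-Hochberg adjustment over all tested genes, and the common biological coefficient of variation was 32.2%. Standard errors follow from each fold change and its F statistic. Library totals ran from 2849979 to 8854899 counts, and 3 counts correspond to 0.389 to 0.938 CPM. On simulated data edgeR recovered 68% of 200 genes changed 4-fold and called 10 unchanged genes of 13948 tested, and DESeq2 recovered 70.5% and called 17.

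The members, the other lists, the tests and the alternatives were chosen with earlier results of these data known. Values in every pool are given for members that were called, members whose groups did not overlap, and the members with the highest and lowest mean level in each role group. From the other lists the called genes and the largest rise and fall are named, and *MTSS1* is named as the targeted gene. A further marker of other cell types is not reported here. Values in the text for further members, and the partner ratios, were chosen after the values were seen. Gene positions come from GENCODE release 44 on GRCh38 and promoters from RefSeq on GRCh38.p14, with 1 start site per gene, the one farthest upstream. Alternatives were DESeq2 1.42.0, limma-voom (limma 3.58.1), other scalings, filters and thresholds, thinned libraries, offsets for transcript length and GC content (mgcv 1.9.3), a block for the pool number, and each pool left out in turn. Summaries and plots used pandas 2.3.3, scipy 1.17.1 and matplotlib 3.10.9 under Python 3.11.15.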

Additional observations from a re-analysis of the deposited data

How the results depend on the processing

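Of 570 log2-fold changes of members under 15 alternatives each, 513 kept their direction and side of the threshold, 43 reversed (in 18 members), 10 no longer passed and 4 newly passed. The main limits are 2 control pools, clones pooled by guide, and a depth that differed with the condition. The cause of the changes below was not tested. Scaling by library size alone lowered the median log2-fold change of all tested genes from −0.03 to −0.17, and the absence of a filter raised it to 0.11, so shifts under these 2 settings are to be read against those medians. Differentially expressed genes numbered 745 as reported, 1357 with DESeq2, 1374 without a filter, 111 without knockout pool 1, 347 without knockout pool 2, 191 without knockout pool 3 and 1349 without control pool 1.

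With library size alone, median log2-fold changes were −0.0278 for the members, −0.14 for the passenger complex, −0.0116 for the inner kinetochore, 0.0796 for the outer kinetochore, −0.15 for *CENPA* loading and cohesion, −0.35 for kinase activators and −0.33 for motors, and single genes reversed to −0.0494 (*AURKA*), −0.14 (*CDCA8*), −0.0218 (*BUB3*), −0.15 (*TTK*), −0.0936 (*CENPK*), −0.0116 (*CENPO*), −0.0812 (*CENPP*) and −0.0338 (*CENPU*). Without a filter the medians were 0.27 for the members, 0.16 for the passenger complex, 0.29 for the inner and 0.38 for the outer kinetochore, 0.18 for *CENPA* loading and −0.0405 for kinase activators, with 1 gene higher in the APC/C list, 1 among kinase activators and 2 among motors, and *CDC20* was at 0.046 and *CENPE* at 0.0182. With at least 10 counts in every library the medians were 0.0884 for the passenger complex, 0.23 for the inner kinetochore and −0.0715 for kinase activators, and 1 motor gene was higher. With DESeq2, 1 gene of the APC/C list and 2 motor genes were higher, and *CDCA8* was at −0.000755. DESeq2 size factors left 1 member (*BIRC5*) higher and put *CDCA8* at −0.000789. With limma-voom the inner kinetochore median was 0.24. Thinned libraries gave −0.13 for the passenger complex and for *CDCA8*, −0.11 for *CENPO* and −0.18 for *CENPP*. GC and length offsets gave medians of −0.0358 for the passenger complex and 0.156 for *CENPA* loading, and −0.0358 for *CDCA8*, 0.20 for *CENPE* and 0.000277 for *CENPF*. At an adjusted p under 0.1, 3 members (*BIRC5*, *CENPW* and *PLK1*) were higher and 1 (*NEK2*) was lower. In the other lists, 1 kinase activator and 2 motor genes were higher, and *SKA2* (log2-fold change 1.18, adjusted p = 0.0639, edgeR) joined the kinetochore subunits called higher.

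The block for the pool number rests on a shared number only, since nothing in the labels pairs control and knockout pools. Across genes, the difference between control pools 1 and 2 correlated with that between knockout pools 1 and 2 at 0.17, which is the only check of shared numbers, against 0.19 for knockout pools 1 and 3 and 0.01 for knockout pools 2 and 3. With the replicate block 1094 genes were called, both called members were still called, 1 gene of the APC/C list was higher, the medians were 0.36 for the inner kinetochore and 0.0126 for motors, and *CENPE* was at 0.00825. The block with GC and length offsets left 1 member higher (*BIRC5*, with *CENPW* at an adjusted p of 0.0582, edgeR), gave medians of 0.25 for the members, 0.33 for the inner kinetochore, 0.21 for *CENPA* loading and 0.10 for motors, and put *BUB1* at 0.00815, *CENPC* at 0.00227, *CENPE* at 0.27 and *CENPF* at 0.0311.

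With each pool left out in turn, the number higher ran from 0 to 2 for members, 0 to 3 for other kinetochore subunits and 0 to 1 for motors, and the number lower from 0 to 1 for the APC/C list. Medians ran from 0.48 to 0.90 for mitotic kinases, −0.00213 to 0.29 for the passenger complex, −0.33 to 0.32 for the checkpoint, 0.11 to 0.32 for the inner kinetochore, 0.0923 to 0.251 for the members, 0.14 to 0.61 for other kinetochore subunits, −0.20 to 0.25 for *CENPA* loading, −0.27 to 0.0811 for the APC/C list, −0.31 to −0.13 for kinase activators, −0.51 to 0.20 for motors and 0.0388 to 0.732 for proliferation markers. Genes ran from −0.54 to 0.15 (*PLK4*), −0.16 to 0.48 (*AURKA*), −1.13 to 0.29 (*INCENP*), −0.12 to 0.21 (*CDCA8*), −0.37 to 0.0167 (*BUB1*), −0.35 to 1.03 (*BUB3*), −0.0169 to 0.618 (*MAD2L1*), −0.26 to 0.43 (*TTK*), −0.52 to 0.57 (*CDC20*), −0.0694 to 0.912 (*CENPI*), −0.11 to 0.23 (*CENPK*), −0.19 to 0.52 (*CENPO*), −0.82 to 0.28 (*CENPT*), −0.28 to 0.83 (*CENPU*), −0.48 to 0.40 (*CENPE*) and −1.04 to 0.16 (*MTSS1*).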
